A study of Capsicum chinense and Capsicum frutescens with 8 samples.

Results

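Some predicted pepper miRNAs were well read in 1 library and were listed, letter for letter, in no other. They number 260 of the 3225 distinct predicted sequences. They were chosen by measured values: listed in exactly 1 of 8 libraries, 10 or more reads there, and a length other than 21 letters. The libraries hold small RNAs of stem, flower buds, fruit and leaf of 2 peppers, the hot chilli Bhut jolokia (Capsicum chinense) and Acc. 4 of C. frutescens, grown in a glass house without any treatment named. Each library was made from RNA pooled from 3 biological replicates of 1 genotype per species, and the fruit RNA joins stages from 5 to 60 days after flower opening. There is thus 1 library per species and tissue and no replicate of a group. The choice used library, reads and length, so the spread of these sequences over libraries and their reads are a description. First base, arm and base composition were not used.

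A plant miRNA is cut by a Dicer-like enzyme from the stem of a folded precursor as a duplex with short 3′ overhangs, and 1 strand is then kept in an Argonaute protein. The strand is named 5p or 3p after the arm of the stem it comes from. In Arabidopsis, Argonautes sort small RNAs partly by their first base: AGO1, which holds most miRNAs, favours U, AGO2 and AGO4 favour A, and AGO5 favours C. Most plant miRNAs have 21 letters. Those of 22 letters are known to start secondary siRNAs on their targets, and RNAs of 24 letters are mostly siRNAs that guide DNA methylation.

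The 3 best-read sequences of each tissue of C. chinense are shown first, as the sequences whose reads are given one by one below. Capitals mark bases 2 to 8, the seed.
C. chinense stem, Cap-m0102-5p: uUCUUUACgucuuuccccuuggacc
C. chinense stem, Cap-m0021-5p: aUUUGGAUgauguaggugugccc
C. chinense stem, Cap-m0027-5p: cGAUGAGCcucguauacgcauggc
C. chinense flower, Cap-m0280-5p: uCUGGGAUccccuuugcuugga
C. chinense flower, Cap-m0615-3p: uCCUCGUGuugcaucccuuccuu
C. chinense flower, Cap-m0350-3p: cCACCUUGgacacuccuaacgga
C. chinense fruit, Cap-m0121-3p: uCAUACUUcuccgcacauguucaa
C. chinense fruit, Cap-m0235-5p: gAUGUGGGggcaugugacugaaug
C. chinense fruit, Cap-m0238-3p: gGAAGUCCucguguuacaucccu
C. chinense leaf, Cap-m0059-3p: cAUCGGUAagacaacuuuggcu
C. chinense leaf, Cap-m0025-3p: uACCAAUUguacgucugaggccu
C. chinense leaf, Cap-m0052-3p: uUCGAGCCccgcugggaccauaau

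The 3 best-read sequences of each tissue of C. frutescens follow, with the seed again in capitals.
C. frutescens stem, Cap-m0177-3p: aCGGCUUCaacgaauuuggcauga
C. frutescens stem, Cap-m0253-3p: uGCACCGGucgucucgucccuu
C. frutescens stem, Cap-m0016-3p: cUUUAGCGcaccgggcugcccua
C. frutescens flower, Cap-m0027-3p: cCGAAACGcucggaauugugccc
C. frutescens flower, Cap-m0032-5p: cUGGGAUCcucuuuguuuggag
C. frutescens flower, Cap-m0082-3p: cUUACUGGagucugcugucugag
C. frutescens fruit, Cap-m0550-3p: aUCUUGCCgauuccguccauaccgcu
C. frutescens fruit, Cap-m0717-3p: uUCGACAUuccagacauguuggu
C. frutescens fruit, Cap-m0479-5p: uUGGGUCGaaguuuuggaggccuu
C. frutescens leaf, Cap-m0069-3p: cAUUUGUGggauaccgggcugccu
C. frutescens leaf, Cap-m0007-3p: gCUCCUGUugcagcugcuaccgca
C. frutescens leaf, Cap-m0025-3p: aUUGGUCAucgcguuugguugaa

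The identifiers number the predictions of each library anew. Of 1749 distinct identifiers 843 occurred in 2 or more libraries, and none of these stood for 1 sequence throughout. Cap-m0025-3p of C. chinense leaf and Cap-m0025-3p of C. frutescens leaf, both printed above, are different sequences. A name is therefore given with its library. No chromosome position comes with the identifiers, and none was assigned.

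The libraries held between 247182 and 1414583 listed reads, conserved and predicted together, so that 10 reads stand for 7.07 per 1000000 listed reads in the stem of C. chinense and for 40.5 in the leaf of C. frutescens. Predicted reads alone numbered 674 to 15250. Every entry under 3 reads, 131 in all, was the second arm of an identifier, and no other entry had fewer than 3. A sequence not listed in a library may therefore have had 1 or 2 reads there or may not have been predicted, and no fold against such a library is given.

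C. frutescens fruit held 151 of the 260 sequences (58.1%). C. chinense stem held 25, C. chinense flower 24, C. frutescens stem 24 and C. frutescens flower 15. C. chinense fruit held 9, C. chinense leaf 8 and C. frutescens leaf 4. By tissue these are 160 in fruit, 49 in stem, 39 in flower and 12 in leaf. By species, C. chinense held 66 and C. frutescens 194, of which 43 lie outside its fruit. C. frutescens fruit also had the longest list of predictions, with 1230 of 3386 entries. The sequences made up 12.3% of its entries (exact Clopper-Pearson 95% interval 10.5 to 14.2) and 10.9% of those of C. frutescens flower (6.26 to 17.4). In C. chinense flower, with 812 entries the second longest list, they made up 2.96% (1.90 to 4.37). The share was 9.09% in C. frutescens stem, 6.96% in C. chinense leaf and 5.80% in C. chinense stem. It was 4.49% in C. frutescens leaf and 2.92% in C. chinense fruit, and 7.68% over all entries. The counts by tissue and by species are not scaled to the lengths of these lists, and their order need not be that of the shares.

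Median reads were low in every library. The median was 14 reads in C. chinense stem and flower, 16 in C. chinense fruit, 14.5 in C. chinense leaf, 18 in C. frutescens stem and leaf, 13 in C. frutescens flower and 16 in C. frutescens fruit. The medians thus lay close together, and the fruit library stood apart by its number of sequences and by its few highest ones. Of the 260 sequences 163 had 10 to 19 reads, 21 had 50 or more and 9 had 100 or more. Of those 9, 8 came from C. frutescens fruit and 1 from C. frutescens leaf.

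**Figure D1:**
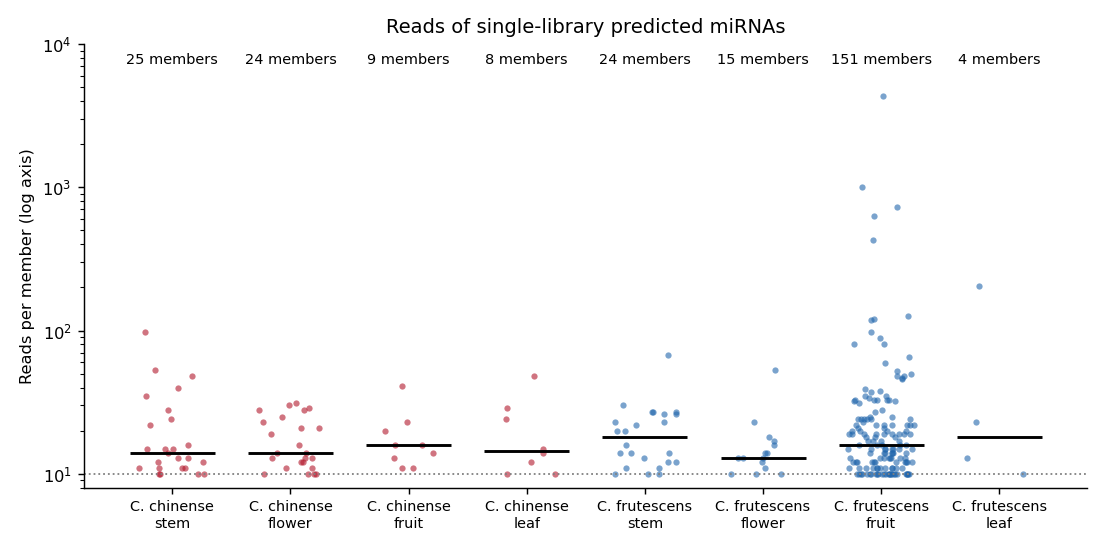
Reads of each of the 260 single-library predicted miRNAs (vertical log axis) in the 8 libraries (red C. chinense, blue C. frutescens). Each point is 1 sequence, black lines are medians, the dotted line is the minimum of 10 reads, and points are spread sideways only to be seen; the medians lie between 13 and 18 while C. frutescens fruit reaches 4331.

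In C. frutescens fruit, Cap-m0550-3p had 4331 reads, Cap-m0717-3p 1001 and Cap-m0479-5p 725. Together with the next 2 they took 7116 reads, 67.8% of the 10488 reads of the sequences of that library. The sequences took 68.8% of the predicted reads of C. frutescens fruit (95% interval 68.0 to 69.5), or 56.4% with Cap-m0550-3p left out of both sums. In C. frutescens leaf they took 36.9% (33.3 to 40.7), of which Cap-m0069-3p alone held 203 of 249 reads. In C. chinense flower they took 6.40% (5.82 to 7.01), and 3010 of the 6628 predicted reads of that library belonged to Cap-m0356-3p, a sequence listed in both flower libraries. Intervals cover counting error only.

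The best-read sequences of the other libraries had fewer reads, counted without scaling. Cap-m0102-5p had 98 reads in C. chinense stem and Cap-m0021-5p 53. Cap-m0177-3p had 67 in C. frutescens stem, and Cap-m0027-3p had 53 in C. frutescens flower. Cap-m0059-3p had 48 in C. chinense leaf, Cap-m0121-3p 41 in C. chinense fruit and Cap-m0280-5p 31 in C. chinense flower. Scaled to 1000000 listed reads, Cap-m0550-3p stood at 4545 and Cap-m0717-3p at 1051. Cap-m0069-3p of C. frutescens leaf stood at 821, above Cap-m0479-5p of C. frutescens fruit at 761. Cap-m0027-3p of C. frutescens flower stood at 128 and Cap-m0102-5p of C. chinense stem at 69.3.

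At the edge of the choice, 43 sequences had exactly 10 reads and 40 further single-library sequences had 9. Of those with 10 reads 26 came from C. frutescens fruit, and of those with 9 reads 23. Length removed few, since 4 single-library sequences of 21 letters had 10 or more reads, with 13 to 17 reads each: 1 in stem of C. chinense and 3 in stem, flower and leaf of C. frutescens. A comparison with sequences of 21 letters within libraries was not possible with 1 such sequence per library. A further 59 sequences had 10 or more reads but were listed in 2 or more libraries.

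Most of the sequences had 23 or 24 letters. There were 137 of 23 letters (52.7%), 95 of 24 (36.5%), 24 of 22 (9.23%) and 2 each of 25 and 26, and none was shorter than 22. By reads, 4803 fell to the sequences of 23 letters, 3015 to those of 24 and 4341 to the 2 of 26, of which Cap-m0550-3p held 4331. The share of 23 letters ran from 44.4% in C. chinense fruit to 73.3% in C. frutescens flower. In C. frutescens flower none of 15 sequences had 24 letters, whereas the other libraries with 5 or more sequences lay between 29.2% and 44.4%. The share of 22 letters was highest in C. frutescens flower (4 of 15) and C. frutescens stem (6 of 24), and was 6 of 151 in C. frutescens fruit.

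**Figure D2:**
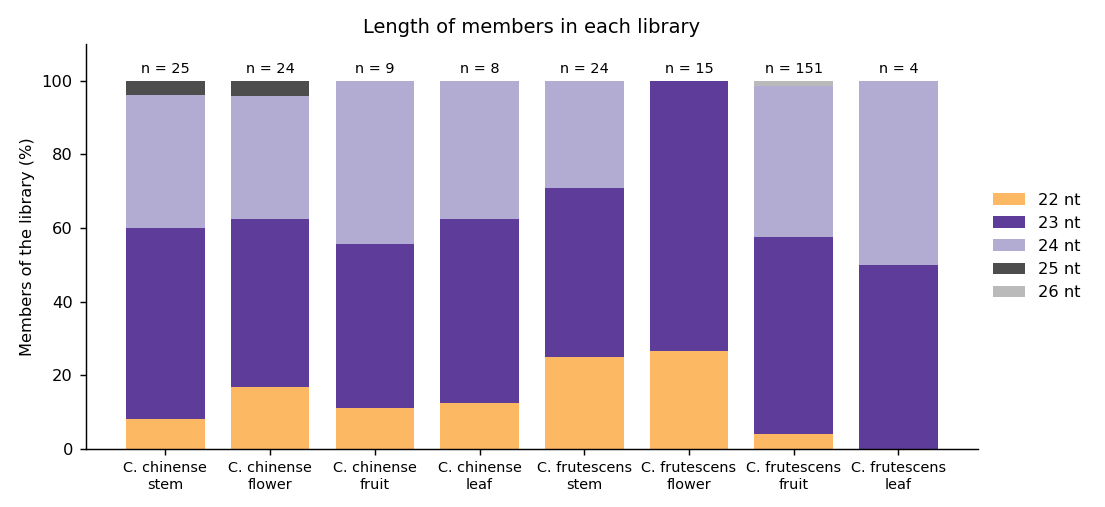
Length of the single-library predicted miRNAs as a percentage of the sequences of each library (vertical axis), with the number of sequences above each bar. The bar of C. frutescens flower has no part of 24 nt, and in the other libraries that part is between 29.2% and 50%.

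The share of 24 letters was next set against that of the weakly read sequences, meaning the 2637 sequences also listed in 1 library and not of 21 letters but with 9 reads or fewer. Over the 7 libraries with at least 5 sequences of each kind it was 31.6% against 35%, a difference of -3.37 percentage points ± 14.8 (SD, n = 7 libraries). It was lower in 4 of 7 libraries. Length was used in the choice, so this value is a description. Without C. frutescens flower the difference was 1.56 points. C. frutescens leaf, with 4 sequences, entered neither this difference nor the tests of first base, arm and G+C content.

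U was the most frequent first base. Of the 260 sequences 96 began with U (36.9%), 60 with C (23.1%), 58 with A (22.3%) and 46 with G (17.7%). Among weakly read sequences of the same library U was less frequent in 6 of 7 libraries. The mean share was 39.5% in the sequences and 30.7% in the weakly read ones, a difference of 8.83 points ± 8.69 (SD, n = 7 libraries). It ran from 28% against 29.9% in C. chinense stem to 50% against 27.8% in C. chinense flower. Over the 10 comparisons of this kind it did not pass (exact sign-flip permutation test, p = 0.0469, Benjamini-Hochberg adjusted p = 0.208). With a minimum of 5 reads in place of 10 the difference was 5.64 points.

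A as first base went the other way in 6 of 7 libraries, with a mean of 19.5% against 27.7% in the weakly read sequences. The difference of -8.18 points ± 14.6 (SD, n = 7 libraries) did not pass (exact sign-flip permutation test, Benjamini-Hochberg adjusted p = 0.281), and it was -1.22 points with a minimum of 20 reads. C. frutescens stem was the exception, with A in 10 of its 24 sequences (41.7%) against 26.2% of its weakly read ones. C. chinense flower was at the other end, with 2 of 24 against 34.2%.

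First base varied with length. Among the sequences of 22 letters 14 of 24 began with U (58.3%), against 30.2% of 484 weakly read sequences of that length. Among those of 24 letters 33 of 95 began with U (34.7%) and 14 with A (14.7%), against 30.2% and 28% of 987 weakly read ones. Among those of 23 letters 47 of 137 began with U (34.3%) and 39 with A (28.5%), against 30.1% and 30.5%. These shares pool the libraries and were not tested. C. frutescens fruit gave 81 of the 137 sequences of 23 letters and 62 of the 95 of 24, but only 6 of the 24 of 22. Length and library cannot be told apart in these shares.

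The 3p arm was named more often than the 5p arm in every library. In all, 148 identifiers ended in 3p and 112 in 5p. The 5p share was 47.7% in C. frutescens fruit, 44.0% in C. chinense stem, 41.7% in C. chinense flower and 40.0% in C. frutescens flower. It was 37.5% in C. frutescens stem, 25% in C. frutescens leaf, 22.2% in C. chinense fruit and 12.5% in C. chinense leaf. The weakly read sequences had more 5p names in 7 of 7 libraries, with 47.6% on average against 35.1%. By library the difference ran from -1.78 points in C. frutescens fruit, with 151 sequences, to -26.1 in C. chinense fruit, with 9. The mean difference of -12.6 points ± 9.84 (SD, n = 7 libraries) had p = 0.0156, the smallest that an exact sign-flip permutation test of 7 libraries can give. It did not pass the adjustment over 10 comparisons (Benjamini-Hochberg adjusted p of that test 0.156). A lone comparison at that smallest p cannot pass in a family of 10, so the miss was set by the design. With a minimum of 5 reads it was -4.45 points. All entries under 3 reads were second arms and could fall only among the weakly read sequences, so the 2 kinds also differ by listing. How far this bears on arm, first base or G+C content was not tested. The arms resembled each other in reads, with medians of 14.5 for 5p and 15.5 for 3p. Of the 5p sequences 35.7% began with U, and of the 3p sequences 37.8%.

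G+C content ranged from 21.7% to 83.3%. Its library means ran from 43.8% in C. frutescens fruit to 56.4% in C. chinense leaf. The weakly read sequences of C. frutescens fruit stood at 43.9%, so the low value there was shared by both kinds. Over 7 libraries the mean was 51.4% against 49.1%, a difference of 2.25 points ± 2.53 (SD, n = 7 libraries) that did not pass (exact sign-flip permutation test, Benjamini-Hochberg adjusted p = 0.208). With a minimum of 5 reads it was 0.347 points.

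**Figure D3:**
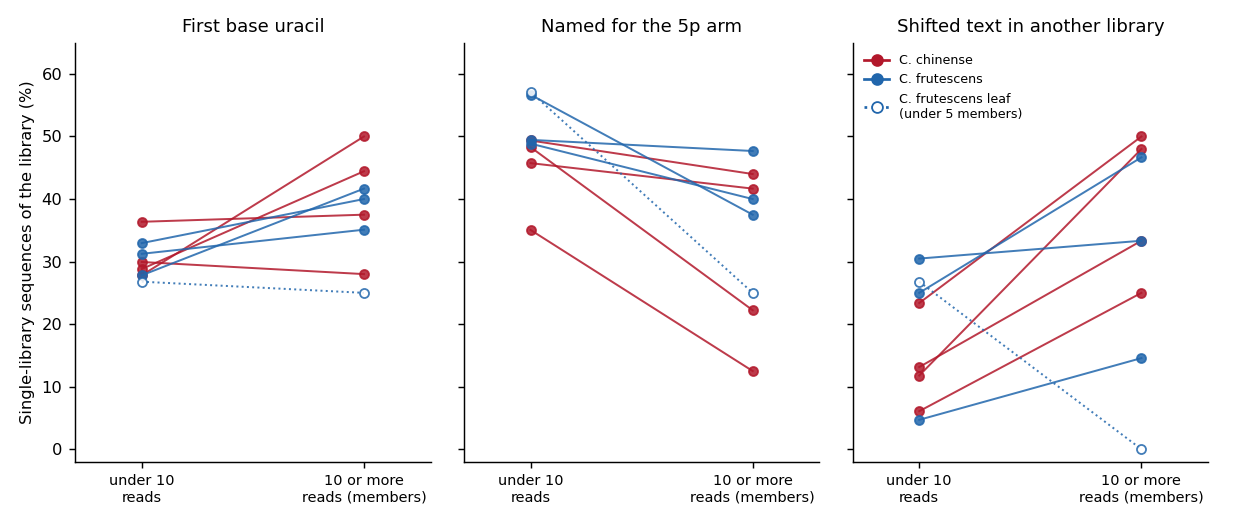
Percentage of sequences that begin with uracil (left), are named for the 5p arm (middle) or share a run of 16 or more letters with a predicted sequence of another library (right), in single-library sequences with under 10 reads and with 10 or more. Each line is 1 library (red C. chinense, blue C. frutescens, dotted C. frutescens leaf with 4 sequences); the 5p share falls along all 8 lines, the uracil share rises along 6, and the share with a shifted text rises along 7.

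Between the species, none of the measures passed over 4 C. chinense and 3 C. frutescens libraries, a design in which the smallest possible p is 0.0571. The share that began with A was 28.3% ± 11.7 (SD, n = 3) in C. frutescens and 13.0% ± 4.99 (SD, n = 4) in C. chinense, a difference of 15.3 points (exact two-sided permutation test, Benjamini-Hochberg adjusted p = 0.281). The share of 24 letters was 23.4% ± 21.1 in C. frutescens and 37.8% ± 4.74 in C. chinense, a difference of -14.4 points that is a description, as length was used in the choice. The 5p share was 41.7% ± 5.31 against 30.1% ± 15.3 (exact permutation test, adjusted p = 0.571). The U share was 38.9% ± 3.41 against 40.0% ± 9.49 (exact permutation test, adjusted p = 0.857). G+C content was 49.9% ± 5.56 against 52.4% ± 2.93 (exact permutation test, adjusted p = 0.643).

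A sequence counted as listed in 1 library by its exact letters can have a shifted form elsewhere. Of the 260 sequences 62 shared a run of at least 16 letters with a predicted sequence of another library, and 198 did not. Of the 62, 34 had such a relative in 1 other library and 28 in 2 or more, up to 5. The closest relative had the same start and another end in 13 cases, 12 of them 1 letter apart. It had another start and the same end in 16, both ends shifted in 28, and a letter that differs within the shared stretch in 5.

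The best-read sequence of all is such a case, and its forms are shown together because a single letter sets them apart. Capitals mark the seed.
C. frutescens fruit, Cap-m0550-3p: aUCUUGCCgauuccguccauaccgcu
C. chinense flower, Cap-m0356-3p: aUCUUGCCgauuccguccauaccgc
C. frutescens flower, Cap-m0042-3p: aUCUUGCCgauuccguccauaccgc
The form of C. frutescens fruit had 4331 reads and 26 letters. The form without the last letter was listed in both flower libraries, with 3010 reads in that of C. chinense and 1027 in that of C. frutescens. All forms have the same seed. No relative of it with a shared run of 16 letters was listed in stem or leaf of either species or in C. chinense fruit.

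Other shifted pairs join stem and flower of 1 species. In C. chinense, Cap-m0350-3p (29 reads in flower) and Cap-m0171-3p (15 reads in stem) differed by 1 letter at the end and share their seed. Cap-m0021-5p (53 reads in stem) and Cap-m0045-5p (28 reads in flower) differed by 1 letter at the start, which moves the seed by 1 base. The sequences are shown to make the shift visible.
C. chinense flower, Cap-m0350-3p: cCACCUUGgacacuccuaacgga
C. chinense stem, Cap-m0171-3p: cCACCUUGgacacuccuaacggag
C. chinense stem, Cap-m0021-5p: aUUUGGAUgauguaggugugccc
C. chinense flower, Cap-m0045-5p: uUUGGAUGauguaggugugccc

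The widest spread was that of Cap-m0394-5p of C. chinense stem (13 reads) and Cap-m0018-3p of C. chinense leaf (15 reads), which have relatives in 5 other libraries each and overlap each other by 18 letters. The former is named for the 5p arm and the latter for the 3p arm. Cap-m0052-3p of C. chinense leaf (24 reads) ended at the same letter as shorter forms with 139 reads in C. chinense stem, 65 in C. chinense flower, 15 in C. frutescens stem and 14 in C. frutescens leaf. It starts 2 letters before the form of C. chinense stem and 1 letter before that of C. chinense flower.
C. chinense leaf, Cap-m0052-3p: uUCGAGCCccgcugggaccauaau
C. chinense flower, Cap-m0451-3p: uCGAGCCCcgcugggaccauaau
C. chinense stem, Cap-m0226-3p: cGAGCCCCgcugggaccauaau

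The relatives were in another tissue of the same species for 47 of the 62 sequences, in the other species for 32 and in the same tissue of the other species for 13. For 31 the relative had 10 or more reads in the other library, and for 17 it had more reads there than the sequence itself. The share of sequences with a relative was 48.0% in C. chinense stem, 25% in C. chinense flower, 33.3% in C. chinense fruit and 50% in C. chinense leaf. In C. frutescens it was 33.3% in stem, 46.7% in flower and 14.6% in fruit, and none of 4 in leaf. In weakly read sequences of C. chinense these shares ran, in the same order, 11.8%, 6.08%, 13.1% and 23.4%, and for C. frutescens 30.5%, 25%, 4.70% and 26.8%. Over the 7 libraries with at least 5 sequences of each kind the mean was 35.8% against 16.4%, a difference of 19.5 points ± 10.8 (SD, n = 7 libraries), and the sequences stood higher in 7 of 7. This comparison and that of the other arm, given further on, were added after the data were seen. Its p was 0.0156, the smallest an exact two-sided sign-flip permutation test of 7 libraries can give. The Benjamini-Hochberg adjusted p of that exact test was 0.0312 over the 2 added comparisons and 0.0938 over all 12, so it passes only in the smaller family. The choice used reads and listing in libraries, and a relative is again a listing in another library. The difference is therefore given as a description, and no conclusion is drawn from its p. With a minimum of 5 reads the difference was 7.18 points, and with sequences of 21 letters included it was 13.7 points and did not pass (exact test, adjusted p = 0.0859 over 2). A shared run links 2 libraries, so the 7 differences are not independent of each other. C. frutescens fruit had the most sequences without a relative, 129 of 198.

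**Figure D4:**
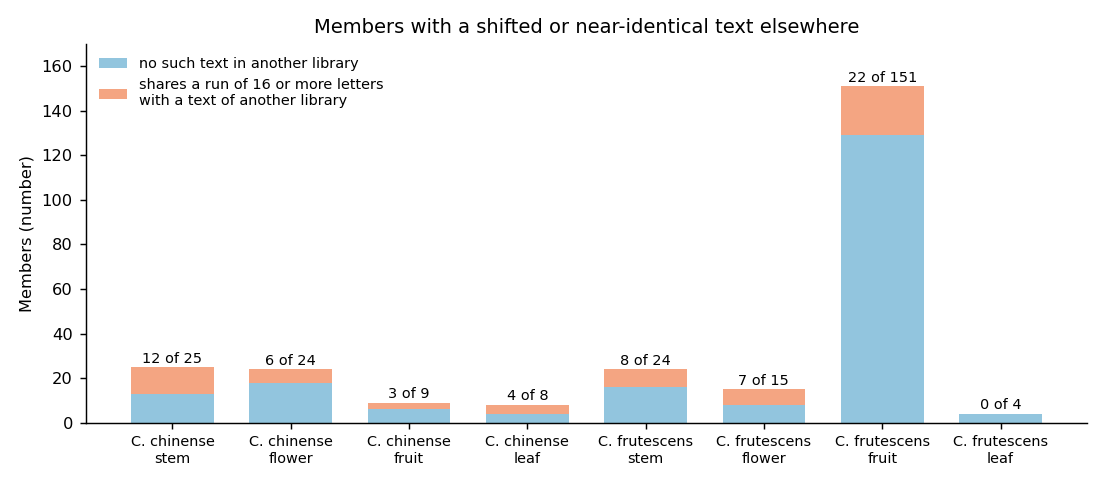
Number of single-library predicted miRNAs per library (vertical axis), divided into those that share a run of 16 or more letters with a predicted sequence of another library (orange) and those that do not (blue). The orange part is 22 of 151 in C. frutescens fruit and 12 of 25 in C. chinense stem.

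Of the 24 best-read sequences 10 had a relative in another library and 14 had none. Among the latter are Cap-m0717-3p and Cap-m0479-5p of C. frutescens fruit, all 3 of C. frutescens leaf, Cap-m0102-5p of C. chinense stem and Cap-m0059-3p of C. chinense leaf.

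The 260 sequences had 251 distinct seeds, of which 9 were held by 2 sequences and none by more. Some of these pairs are shifted or near-identical sequences, such as Cap-m0350-3p and Cap-m0171-3p of C. chinense. No count among weakly read sequences stands beside these, so they are not read as a trait of the 260. The 3 shared seeds with most reads are shown with their sequences.
C. frutescens fruit, Cap-m0145-3p: aAGGUUUGuacucuguauauauu
C. frutescens fruit, Cap-m0451-3p: aAGGUUUGgacucuguauauauu
C. frutescens fruit, Cap-m0640-5p: aUAUGGACagaaaagauucuccg
C. chinense flower, Cap-m0345-5p: uUAUGGACccggcgacuuacaaguc
C. frutescens fruit, Cap-m0342-3p: uACUGGAGucugcugucugaguuu
C. chinense flower, Cap-m0412-3p: aACUGGAGucugcagccauggca
The first pair, with 80 and 24 reads, lies within 1 library. In the second, with 80 and 11 reads, and the third, with 48 and 10 reads, the partners come from fruit of C. frutescens and flower of C. chinense.

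The other arm of the same identifier was listed for 29 of the 260 sequences, which belong to 27 identifiers, 20 of them in C. frutescens fruit. That is 14.6% of the sequences of C. frutescens fruit, against 14.3% of its weakly read ones, and 12% against 13.7% in C. chinense stem. It was 8.33% against 4.10% in C. chinense flower, and no sequence against 10.6% in C. chinense fruit. Over 7 libraries the mean was 6.53% against 9.31%, a difference of -2.77 points ± 4.63 (SD, n = 7 libraries) that was negative in 5 of 7. It did not pass (exact sign-flip permutation test, adjusted p = 0.172 over the 2 added comparisons and 0.295 over all 12). Entries under 3 reads were all second arms and could fall only among the weakly read sequences. The 2 kinds thus differ by listing alone, and no conclusion is drawn from the sign. The other arm had 1 to 3 reads in 20 of the 27 identifiers and 10 or more in 3. The median share of reads on the better-read arm was 91.7%. When both arms were paired by computed folding, they formed 6 to 22 base pairs with a median of 15. In 11 of 27 the number was under 15.

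Both arms of 5 identifiers are printed: the 3 with most base pairs, the 1 with the most even reads and the 1 with an overhang of 2 on both arms.
C. frutescens fruit, Cap-m0550-3p: aUCUUGCCgauuccguccauaccgcu
C. frutescens fruit, Cap-m0550-5p: uGGUGUGGgcggggcgggaagaua
C. frutescens fruit, Cap-m0640-5p: aUAUGGACagaaaagauucuccg
C. frutescens fruit, Cap-m0640-3p: gGAGAAUCuuuucuguccauaug
C. frutescens fruit, Cap-m0315-5p: uGAGUAGGagcagaaacaguau
C. frutescens fruit, Cap-m0315-3p: cUGUUUCUucuccuacucauauu
C. chinense stem, Cap-m0102-5p: uUCUUUACgucuuuccccuuggacc
C. chinense stem, Cap-m0102-3p: cCAAGGGGaaagacguaaagaa
C. frutescens fruit, Cap-m0178-3p: aUUUUUGAaggauccgaacaaua
C. frutescens fruit, Cap-m0178-5p: uUGUUCGGauccuccaauaauau

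In Cap-m0550 the arms had 4331 and 141 reads and formed 21 base pairs, with 3′ overhangs of 2 letters on the 3p and 1 on the 5p arm. The 5p arm was listed with the same letters in C. frutescens flower, with 130 reads, beside the shorter 3p form. In Cap-m0640 the arms had 80 and 10 reads and formed 22 pairs without a break, with 1 letter over at each 3′ end. In Cap-m0315 they had 38 and 27 reads, the most even of the 27, with 18 pairs and overhangs of 3 and 4. Both arms of Cap-m0640 and of Cap-m0315 belong to the 260 sequences. Cap-m0102 of C. chinense stem had 98 and 3 reads and 21 pairs, with an overhang of 3 on the 5p and none on the 3p arm. Cap-m0178 had 22 and 2 reads and 19 pairs, and was the 1 identifier of 27 with an overhang of 2 on both arms. Cap-m0799 of C. frutescens fruit, the other with 20 or more pairs, had 65 and 3 reads and 20 pairs, with overhangs of 3 on the 5p and 2 on the 3p arm. Of the 16 identifiers with 15 or more pairs, 5 had overhangs of 1 to 3 letters on both arms.

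**Figure D5:**
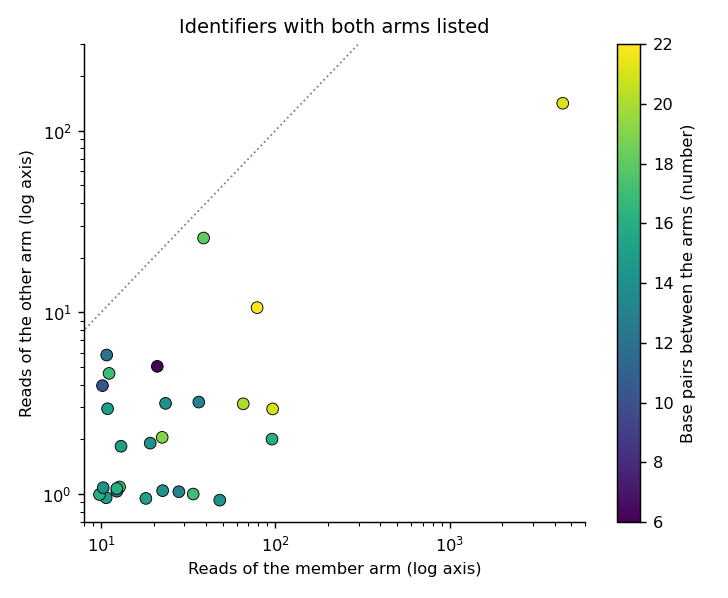
Reads of the better-read arm (horizontal log axis) against reads of the other arm (vertical log axis) for the 27 identifiers that list both arms, coloured by the number of base pairs in the computed duplex. Points are moved by a few percent so that equal values can be seen; all lie under the dotted line of equal reads, and the point at the upper right is Cap-m0550 with 4331 and 141 reads.

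None of the 260 sequences was printed in a sheet of conserved entries, and 1 shared a run of 16 letters with one. When up to 3 mismatches were allowed over at least 20 letters, 6 of the 260 (2.31%) resembled a conserved entry, against 2.09% of the weakly read sequences. All 6 came from C. frutescens fruit. They are printed with the entry they resemble most, in lower case, because these are the sequences with a relative of known name.
Cap-m0550-3p: aUCUUGCCgauuccguccauaccgcu
stu-miR482b-3p: ucuugccgauuccccccauucc
Cap-m0962-3p: cUACCAACuccacccauuccugu
mtr-miR2118: auaccaauuccacccauuccu
Cap-m0728-5p: gUUGCUCGgacccuccaaaaaug
stu-miR5303h: aaguugcucggacucuccaaaaauguugcc
Cap-m0178-3p: aUUUUUGAaggauccgaacaaua
Cap-m0355-3p: aUUUAUGGaggauccgagcaaca
stu-miR5303g: auauuuuugaagaauccgagcaaca
Cap-m0040-5p: uGGAGAAAcugguaagauggaacu
gma-miR4348a: uuggagaaacuuguaagaugg

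Cap-m0550-3p, with 4331 reads, had 3 mismatches over 22 letters with an entry of miR482, 1 of 2 equally near entries, a family that targets NBS-LRR resistance genes and is related to miR2118. Cap-m0962-3p, with 12 reads, had 2 mismatches over 21 letters with an entry of miR2118. Cap-m0728-5p, with 10 reads, had 1 over 23 with an entry of miR5303. Cap-m0178-3p (22 reads) and Cap-m0355-3p (15 reads) each had 3 over 23 with another entry of that family, and Cap-m0040-5p (12 reads) had 1 over 20 with an entry of miR4348. Cap-m0355-3p had forms 1 letter longer with 25 reads in C. chinense fruit and 42 in C. frutescens stem.

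Within a library, 7 pairs of the sequences overlapped by 16 letters or more under different identifiers. Of these pairs 6 were in C. frutescens fruit, which holds 151 of the 260 sequences. Possible pairs within a library grow faster than its number of sequences, so 6 of 7 is not read as an excess. No count among weakly read sequences stands beside these pairs. Cap-m0587-3p and Cap-m0239-3p, with 35 and 33 reads, overlapped by 22 letters. Cap-m1031-5p, with 12 reads, starts 6 letters before Cap-m0587-3p and is named for the other arm. Sequences that overlap in this way share their letters and are not independent of each other.
C. frutescens fruit, Cap-m1031-5p: uGAUUUGGaaagggcuagagaag
C. frutescens fruit, Cap-m0587-3p: gGAAAGGGcuagagaagaauuggu
C. frutescens fruit, Cap-m0239-3p: aAAGGGCUagagaagaauugguuc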

How the data were processed

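Total RNA was pooled per tissue and sequenced as small RNA libraries on an Illumina Genome Analyser II after TruSeq Small RNA preparation, per the labels' protocols. The authors deposited a sheet of conserved and a sheet of predicted miRNAs per library, whose values are read counts, whole numbers without normalization, per the file headers. For trimming, aligner, database release, prediction tool and listing rule, nothing is stated: not given in the sources used here.

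Sequences were joined by exact letters over the 8 predicted sheets, and no column belonged to an unmapped sample. Shares per library were compared by exact two-sided sign-flip or permutation tests with the library as unit and at least 5 sequences per class, since libraries have no replicates; tissues stand in as replicates of a species. The Benjamini-Hochberg adjustment ran over 10 planned comparisons (threshold 0.05), of which 2 concern the share of 24 letters and are given as a description, since the choice used length. With 7 libraries, 1 difference alone cannot pass over 10 comparisons. A miss for U, A, 5p or G+C content therefore does not show that the kinds are alike. The planned comparison with sequences of 21 letters could not be made. 2 further comparisons, of shifted forms and of the other arm, were made after the data were seen. They were first computed, then taken out once their values had been seen because a shared run links libraries, and then put back with all their settings. That of shifted forms is given as a description, since the choice used reads and listing. Duplexes were computed with ViennaRNA 2.7.2. Python 3.11.15, pandas 2.3.3, numpy 2.4.6, scipy 1.17.1 and matplotlib 3.10.9 were used. The sign-flip test was tried on simulated first-base shares of independent libraries. The permutation test and the adjustment were checked on small fixed sets of values only.

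The members and lists were chosen with earlier results of these data known. Sequences named singly are the 3 best-read ones of each library and the 3 shared seeds with most reads. Those named for shifted forms, both arms, nearness to conserved entries or overlap were chosen after their values were seen. P-values rest on single libraries of unlike tissues, and none reflects variation between biological replicates.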

Additional observations from a re-analysis of the deposited data

Results flagged for a closer look

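Of 13 measures compared over libraries, 4 had 1 library far from all others, by a gap to the nearest library that is large against the whole range. Chance alone sets off such a mark in about 1 in 20 groups. All 4 are on values that the choice of the sequences used (library, reads, length), so they are a description and no test. C. frutescens fruit held 151 of the sequences, and the next library 25. The sequences made up 12.3% of the entries there and 10.9% in C. frutescens flower. The sequences of C. frutescens fruit had 10488 reads, and those of the next library 557, counted without scaling. Of the predicted reads they took 68.8% in C. frutescens fruit and 36.9% in C. frutescens leaf. The best-read sequence of C. frutescens fruit had 4331 reads, and the best-read one of any other library 203. Scaled to 1000000 listed reads, these sequences stood at 4545 and 821. The values 151, 10488 and 4331 all come from the same library, which also has the longest list of predictions. These 3 values are not scaled to listed reads or to the lengths of the lists. The share of sequences of 24 letters was 0% in C. frutescens flower, with 15 sequences, and the nearest of the other libraries stood at 29.2%. With no sequence of 24 letters among 15, the difference rests on few sequences.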

How the results depend on the processing

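No paired analysis was possible because each species and tissue has 1 library, if pairs are taken by replicate number. With species paired by tissue instead (3 pairs, smallest exact sign-flip permutation p 0.25), the differences were -1.89 points (U), 15.1 (A), -14.5 (24 letters), 5.76 (5p) and -1.17 (G+C), and that design could pass none. Of 155 values of the 10 planned comparisons under other settings, 141 kept their sign, 14 reversed and 0 passed the threshold (lowest adjusted p of the exact tests 0.0781). The causes were not tested. Many of these values could not pass. Species comparisons of 4 against 3 libraries have a smallest exact permutation p of 0.0571. Comparisons with weakly read sequences over 6 libraries or fewer could not pass over 10 either. The 0 therefore says little about stability. Over the settings other than leaving out a library, differences from weakly read sequences ranged from 5.64 to 9.10 (U), -8.54 to -1.22 (A), -7.16 to 0.702 (24 letters), -17.1 to -4.45 (5p) and 0.347 to 2.74 (G+C), and species differences from -12.7 to -0.0780 (U), 4.35 to 27.2 (A), -23.8 to 4.19 (24 letters), -8.31 to 11.7 (5p) and -2.45 to 0.947 (G+C). With a minimum of 5 reads, the difference from weakly read sequences in 24-letter share became 0.623 points, and the species differences became 0.0172 (24 letters) and 0.947 (G+C). With 20 reads, the species differences became 4.19 (24 letters) and -8.31 (5p). With 21-letter sequences included, the 24-letter difference became 0.702. Weighted by reads, the species differences became -1.42 (5p) and 0.901 (G+C), and with at least 10 sequences per class -1.11 (5p).

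Of the added comparisons, that of shifted forms reversed in 0 of 14 settings. It was 7.18 points with 5 reads, 23.2 with 20, 13.7 with 21-letter sequences, 22.8 by reads and 17.9 with 10 sequences per class. It missed the threshold in 11, of which 9 hold 6 libraries or fewer, where the smallest exact p doubled is over 0.05, so those 9 say nothing about stability. The other 2 were 21-letter sequences included and weighting by reads. That of the other arm reversed to 5.09 by reads.

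Leaving out 1 library at a time, differences from weakly read sequences ranged from 1.51 to 2.79 (G+C), -6.19 to 1.56 (24 letters), -14.4 to -10.3 (5p), -12.1 to -5.24 (A), 6.60 to 10.6 (U), 16.7 to 22.2 (shifted forms) and -3.94 to -1.47 (other arm). Species differences ranged from -4.78 to 0.609 (G+C), -23.2 to -2.71 (24 letters), 5.76 to 16.3 (5p), 8.60 to 19.4 (A) and -5.06 to 2.27 (U). The 260 sequences became 109 to 256, 109 being without C. frutescens fruit, and the 62 with shifted forms 39 to 60.

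In the order stem, flower, fruit and leaf, a minimum of 5 reads gave 857 sequences (95, 133, 40 and 27 for C. chinense, then 79, 37, 423 and 23 for C. frutescens), 142 with shifted forms and 75 with the other arm. A minimum of 20 gave 97 (8, 9, 3 and 3, then 12, 2, 58 and 2), 27 and 15. An equal minimum of 40.5 per 1000000 listed reads, added after the data were seen, gave 33 (1, 0, 1 and 1, then 1, 4, 21 and 4), 7 and 7. Without sequences that have shifted forms, 13 remained in C. chinense stem, 4 in C. chinense leaf and 8 in C. frutescens flower. Runs of 14, 18 and 20 letters gave 65, 55 and 50 shifted forms.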

Other observations

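Of the 260 sequences, 20 held a run of 16 letters that is the reverse complement of a run in a sequence of another identifier. For 13 the other sequence was in the same library and for 8 in another library. These values are given as a description, and no test was made. No share among weakly read sequences stands beside them, so they are not read as a trait of the 260.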
